A study of Mus musculus with 9 samples.

Results

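Keratin genes were examined for H3K27me3, the trimethyl mark on lysine 27 of histone H3 that Polycomb repressive complex 2 places on silenced genes. The 53 genes were all protein-coding genes of the mouse build mm10 whose symbol is Krt followed by a number and at most 1 letter, out of 21887 protein-coding genes in all. Of these, 27 lay in the type I cluster at chr11:99232761-100269951, bounded by Krt222 and Krt42, and 26 lay in the type II cluster at chr15:101348315-102032026, bounded by Krt80 and Krt18. Symbols and spans came from the RefSeq gene table of GRCm38.p6, the assembly of mm10. Exon positions were not used here, so an interval over a gene is given against its span without telling exons from introns.

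The mark was mapped by chromatin immunoprecipitation and sequencing in uncultured bone marrow cells selected for c-Kit after depletion of mature lineages, a fraction that holds hematopoietic stem and progenitor cells. The donors of these cells were transplanted female mice under treatment for 1 month, with genotypes on a C57BL/6 background. The 4 groups had 2 libraries each. RH MET cells carried Dnmt3a fl-R878H/+ and came from metformin-treated mice, RH VEH cells carried the same genotype under vehicle, WT MET cells were Dnmt3a+/+ under metformin, and WT VEH cells were Dnmt3a+/+ under vehicle. Dnmt3a encodes a de novo DNA methyltransferase, and metformin is a biguanide drug for type 2 diabetes. All groups carried the Mx1-cre transgene, whose interferon-inducible promoter drives Cre in blood cells and in other tissues, so that WT groups share the Cre but not the floxed R878H allele. Whether replicate libraries stem from separate animals is not stated in the labels, so every p-value reflects the spread of these libraries alone and that spread may be technical. A single input library was sequenced as well, and no interval list of it was analysed here.

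Keratins are the intermediate filament proteins of epithelial cells. Every filament is built from pairs of a type I (acidic) and a type II (basic) keratin, and most genes of each type sit in 1 cluster, where each epithelium uses its own pairs. Blood progenitors are not epithelial, and keratins serve as markers that are absent from blood cells. Expression was not measured in the files used here, so that the silence of these genes is background and not a result. Polycomb marking of silent genes is known to favour CpG-rich promoters, and it is not the only way in which a gene is kept off.

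A library counted as calling a gene when an interval of the authors shared at least 1 bp with its span, and its cover was the percent of the span inside intervals. The libraries differed in how much they called. Intervals covered 122 and 131 Mb in RH MET, 80.0 and 155 Mb in RH VEH, 148 and 186 Mb in WT MET and 142 and 145 Mb in WT VEH. RH VEH 1 stood apart with the lowest covered length, interval number (11620, against 12009 to 16879 in the others) and median summit height (12, against 14 to 17), and results that rest on it are given with and without it. Read numbers are unknown, so an absent interval can be a mark below the caller's limit. Calls at genes of the enriched cells were mixed: Gata2 was called in 8 libraries, Cd34 in 6, Kit in 5, Myb and Spi1 in 1 each, and Ptprc and Runx1 in none. Of 5 genes of other marrow cells, Col1a1, Lepr and Cxcl12 were called in 8 libraries and Pecam1 and Cdh5 in none, and the housekeeping genes Actb and Gapdh were called in none.

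Keratin genes were marked, partly marked or bare. H3K27me3 intervals overlapped 25 of the 53 in all 8 libraries, against a background of 24.8% of all protein-coding genes. A further 14 were called in 1 to 7 libraries (background 14.4%), so that 39 were called at least once (background 39.3%), and 14 were called in none (background 60.7%). As shares of the keratin genes these were 47.2% in all 8, 26.4% in some and 26.4% in none. No count among them was tested, because the genes are neighbours that share intervals.

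The type II cluster carried most of the calls. In it 17 of 26 genes were called in all 8 libraries, 7 in some and 2 in none, against 8, 7 and 12 of 27 in the type I cluster. With a cover of at least 50% required in each library, 11 keratin genes remained (background 6.56%). Krt76, a keratin of the palate, was fully covered in all 8 libraries. Other gene clusters of tissues outside blood differed in their counts: 2 of 56 keratin-associated protein (Krtap) genes, 0 of 35 Lce and Sprr genes of the cornified envelope and 9 of 1110 olfactory receptor genes were called in all 8 libraries, against 31 of 39 Hox genes. Median spans were 0.833 kb for Krtap, 1.655 kb for Lce and Sprr and 0.95 kb for olfactory receptor genes. They were 3.737 kb for Hox and 7.07 kb for keratin genes. A shorter span can meet fewer intervals, and the part of length in these counts was not tested.

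**Figure D1:**
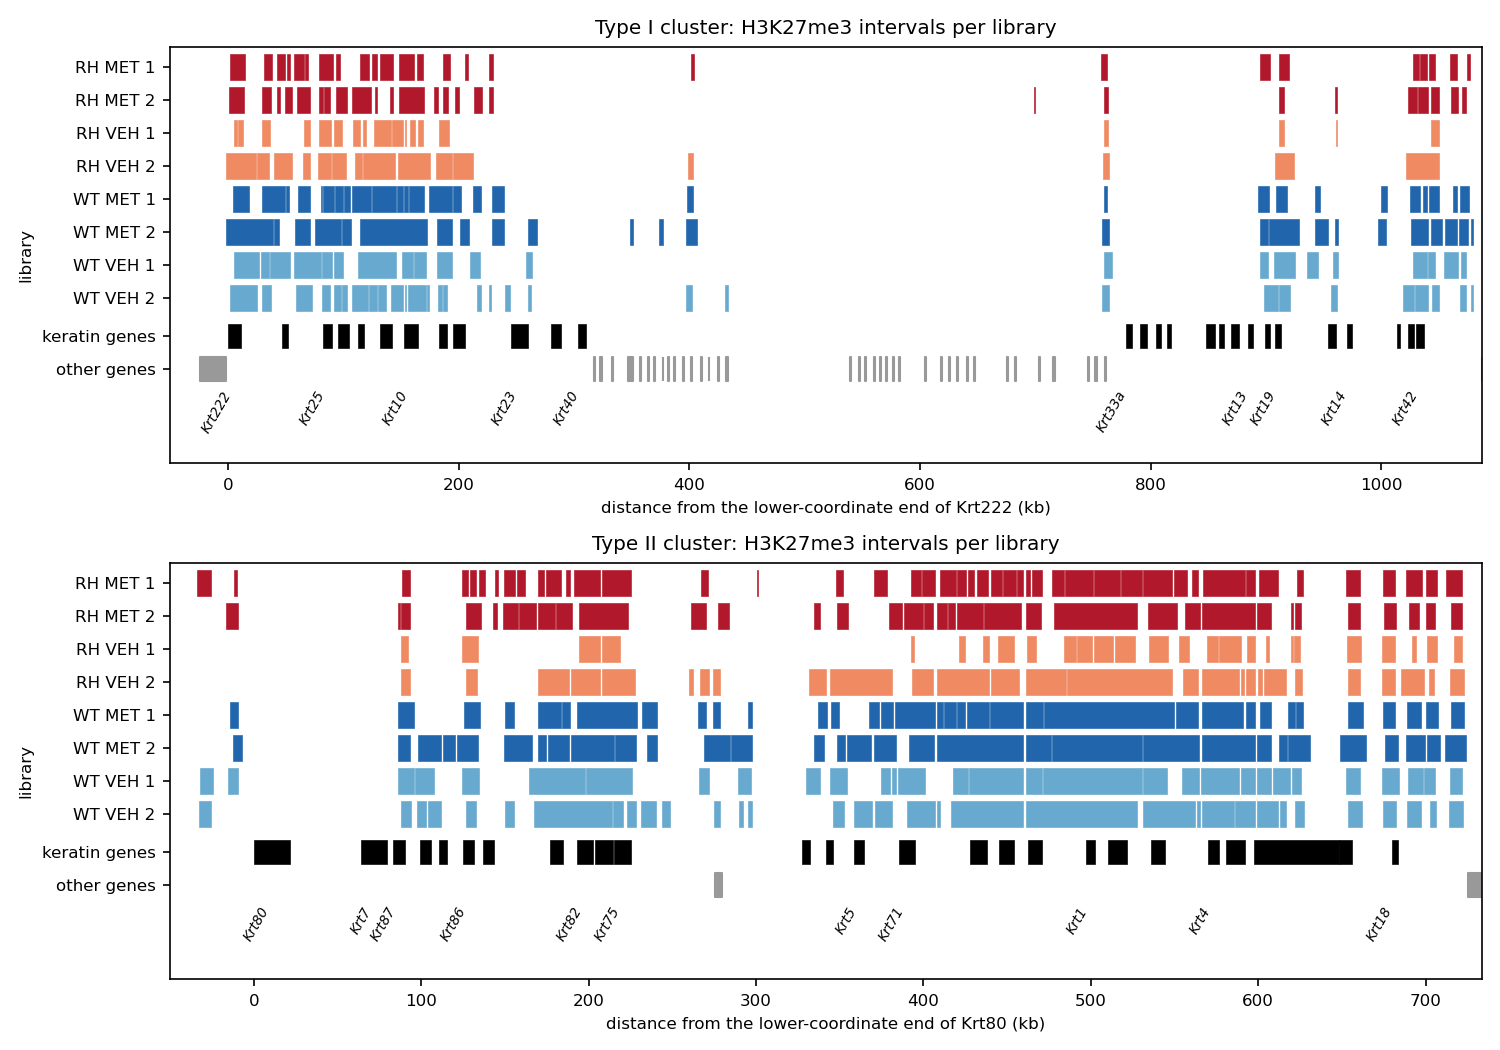
Intervals of each library (rows, coloured by group) along the type I cluster (top) and the type II cluster (bottom), with keratin genes in black and other protein-coding genes in grey below, against the distance in kb from the lower-coordinate end of the first keratin gene. The type I cluster is marked at both ends with a long stretch holding few intervals between them, and the type II cluster is marked densely from about Krt71 onward and not at all over Krt80 and Krt7.

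The simple epithelial keratins, which line ducts and glands, were split between marked and unmarked genes. Krt8 (chr15:101996711-102004342) and Krt18 (chr15:102028216-102032026), the partner keratins of simple epithelia, were called in every library. Krt18 is a type I keratin that sits at the end of the type II cluster. Krt7 (chr15:101412403-101427806), a type II keratin of ducts and glands, had no interval in any library. The 250 bases before and 50 bases after the RefSeq start of these genes are shown with those of Krt76, the fully covered gene, and Krt31, an unmarked hair keratin. They include a CpG-rich start with the mark (Krt18) and one without it (Krt7). Each sequence runs 5′ to 3′ on the gene's strand and its CpG dinucleotides are in capitals.
Krt18: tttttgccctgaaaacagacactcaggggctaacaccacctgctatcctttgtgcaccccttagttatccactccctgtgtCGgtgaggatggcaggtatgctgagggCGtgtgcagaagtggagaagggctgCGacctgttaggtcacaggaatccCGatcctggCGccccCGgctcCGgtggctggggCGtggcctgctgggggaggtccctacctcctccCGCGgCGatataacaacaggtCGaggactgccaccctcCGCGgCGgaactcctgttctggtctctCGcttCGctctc
Krt8: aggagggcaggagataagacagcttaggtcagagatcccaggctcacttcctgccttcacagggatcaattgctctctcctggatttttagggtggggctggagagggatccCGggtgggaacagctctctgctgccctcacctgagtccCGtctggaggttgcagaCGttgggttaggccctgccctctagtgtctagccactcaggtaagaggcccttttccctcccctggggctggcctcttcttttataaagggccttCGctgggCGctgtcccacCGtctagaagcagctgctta
Krt7: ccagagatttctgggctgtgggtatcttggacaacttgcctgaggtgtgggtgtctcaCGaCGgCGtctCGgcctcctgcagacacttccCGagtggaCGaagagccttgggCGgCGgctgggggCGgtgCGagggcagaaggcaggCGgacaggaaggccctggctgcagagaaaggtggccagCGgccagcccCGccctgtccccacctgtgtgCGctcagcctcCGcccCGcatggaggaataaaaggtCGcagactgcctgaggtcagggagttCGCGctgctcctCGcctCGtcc
Krt76: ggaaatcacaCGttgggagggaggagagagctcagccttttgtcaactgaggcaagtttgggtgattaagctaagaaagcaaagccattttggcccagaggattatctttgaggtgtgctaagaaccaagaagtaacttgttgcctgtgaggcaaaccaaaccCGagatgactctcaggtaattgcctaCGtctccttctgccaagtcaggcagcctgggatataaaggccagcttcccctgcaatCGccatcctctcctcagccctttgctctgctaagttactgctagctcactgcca
Krt31: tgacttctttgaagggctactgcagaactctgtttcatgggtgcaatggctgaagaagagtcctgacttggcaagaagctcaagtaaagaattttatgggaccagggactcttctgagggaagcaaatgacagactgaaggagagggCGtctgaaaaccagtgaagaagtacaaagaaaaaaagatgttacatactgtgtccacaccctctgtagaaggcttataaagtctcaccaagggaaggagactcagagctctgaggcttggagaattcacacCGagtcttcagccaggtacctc

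The windows lie on GRCm38.p6 at chr15:102027966-102028265 (plus strand) for Krt18, chr15:102004293-102004592 (minus strand) for Krt8, chr15:101412153-101412452 (plus strand) for Krt7, chr15:101892871-101893170 (minus strand) for Krt76 and chr11:100050502-100050801 (minus strand) for Krt31. The Krt18 window holds 17 CpG dinucleotides and the Krt7 window holds 21, against 6 for Krt8, 4 for Krt76 and 2 for Krt31. The windows of Krt18, Krt8 and Krt76 were overlapped by intervals in all 8 libraries, and those of Krt7 and Krt31 in none.

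Cover of the marked simple epithelial genes was partial in most libraries. Krt8 was covered over 43.8% and 28.1% of its span in RH MET, 38.5% and 33.3% in RH VEH, 30.7% and 93.6% in WT MET and 46.4% and 28.1% in WT VEH. WT MET 2 stood above the other libraries, and the groups overlapped. Krt18 was covered over 52.1% and 57.3% in RH MET, 46.8% and 46.8% in RH VEH, 52.1% and 99.3% in WT MET and 100% and 62.6% in WT VEH. Here WT MET 2 and WT VEH 1 were covered almost whole while the other 6 libraries lay between 46.8% and 62.6%. Krt19 (chr11:100140810-100145926), a type I keratin of ducts, was covered over 45.5% and 41.5% in RH MET, 41.5% and 100% in RH VEH, 84.5% and 100% in WT MET and 100% and 84.4% in WT VEH. The RH libraries were lower at Krt19 with the exception of RH VEH 2, which was covered whole.

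Krt20 (chr11:99428385-99438153), a keratin of intestinal epithelium, and Krt23 (chr11:99477973-99493120) were called in 4 and 3 libraries. Krt20 was covered over 0% and 36.9% in RH MET, 0% and 100% in RH VEH, 65.7% and 44.6% in WT MET and 0% and 0% in WT VEH. Krt23 was uncovered in the 4 RH libraries, while its cover was 0% and 3.43% for WT MET and 14.0% and 3.43% for WT VEH. Its calls therefore rest on a small part of the gene. Krt80 (chr15:101348315-101370162), which stands beside Krt7 at the lower end of the type II cluster, was called in none of the 8 libraries, as Krt7 was.

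The basal keratins of stratified epithelia carried few calls. Krt14 (chr11:100203162-100207510), the type I keratin of the basal layer, had no interval in any library, over a span that reaches 1.48 kb beyond the start of its promoter window. Its partner Krt5 (chr15:101707069-101712905) was covered over 0% and 0% in RH MET, 0% and 100% in RH VEH, 0% and 100% in WT MET and 0% and 100% in WT VEH. The second library of 3 groups thus covered Krt5 whole and the other 5 libraries left it bare. Krt15 (chr11:100131759-100135949), a keratin of basal and hair follicle bulge cells, was covered over 100% and 0% in RH MET, 0% and 0% in RH VEH, 91.7% and 80.9% in WT MET and 67.8% and 100% in WT VEH. All 4 WT libraries and RH MET 1 called Krt15, and the other 3 RH libraries did not.

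The suprabasal epidermal keratins, which replace the basal pair as keratinocytes differentiate, were called in all 8 libraries for 5 of 6 genes (Krt1, Krt2, Krt10, Krt77 and Krt78). Krt1 (chr15:101845426-101850786) was covered over 85.1% and 100% in RH MET, 85.1% and 100% in RH VEH, 100% and 100% in WT MET and 100% and 100% in WT VEH. Its type I partner Krt10 (chr11:99385254-99397449) was covered over 77.0% and 100% in RH MET, 44.3% and 100% in RH VEH, 92.2% and 100% in WT MET and 93.4% and 79.1% in WT VEH. Both partners were thus called throughout, with the lowest cover of Krt10 in RH VEH 1. The RefSeq promoter window of Krt10 begins 8.09 kb inside its 12.2 kb span, so that its cover refers to a span longer than the stretch from that start. Krt9 (chr11:100186781-100193246), the keratin of palm and sole skin, was the exception in this group. It was covered over 0% and 6.90% in RH MET, 3.80% and 0% in RH VEH, 0% and 13.1% in WT MET and 37.8% and 62.6% in WT VEH, so that both WT VEH libraries stood above the rest.

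The keratins induced in stressed skin and skin appendages were called unevenly. Of 5 genes, Krt75, a keratin of the companion layer of the hair follicle, was called in all 8 libraries, and Krt16 in none. Krt17 (chr11:100256215-100261029) was covered over 25.5% and 100% in RH MET, 0% and 100% in RH VEH, 75.4% and 62.9% in WT MET and 25.5% and 95.2% in WT VEH. It was missed only by RH VEH 1. Krt6a (chr15:101689928-101694305) was covered over 0% and 0% in RH MET, 0% and 45.2% in RH VEH, 45.2% and 0% in WT MET and 38.9% and 2.40% in WT VEH. Its near copy Krt6b (chr15:101676023-101680293) was covered over 6.86% in RH VEH 2 and 49.0% in WT VEH 1 and was bare in the other 6 libraries. Krt6a and Krt6b are close paralogs, and how reads that match both were placed is not given in the sources used here, so that their calls are uncertain.

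Among the mucosal and corneal keratins, Krt4 (chr15:101918535-101924735) was marked and its partner in oesophageal and oral epithelium, Krt13 (chr11:100117327-100121566), was not. Krt4 was covered whole in 7 libraries and over 94.6% in RH VEH 1, while Krt13 was bare in all 8. Krt12, the type I keratin of the cornea, and Krt76 were called in all 8. Krt24 (chr11:99279959-99285262) was covered over 77.4% and 57.7% in RH MET, 0% and 100% in RH VEH, 81.1% and 0% in WT MET and 100% and 0% in WT VEH. Each group but RH MET thus had 1 library that called Krt24 and 1 that did not.

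Keratins of the hair follicle included both the fully called inner root sheath genes and most of the bare genes. All 7 genes of the inner root sheath, the sleeve that guides the growing hair, were called in all 8 libraries: Krt25, Krt26, Krt27 and Krt28 in the type I cluster and Krt71, Krt72 and Krt73 in the type II cluster. Krt74 is not among the protein-coding genes of the table and has no value. Of the 14 hair shaft keratins, 9 were called in none, 3 in some and 2 in all 8 libraries. All 9 without a call are type I genes (Krt31, Krt32, Krt33a, Krt33b, Krt34, Krt35, Krt36, Krt39 and Krt40), and the 5 with calls are type II genes (Krt81, Krt82, Krt83, Krt84 and Krt86). Krt85 was not matched in the table.

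Among the type II hair keratins, Krt86 was covered over 76.6% to 100% of its span and Krt82 over 83.2% to 100%. Krt84 (chr15:101525026-101532820) was covered over 89.5% and 87.2% in RH MET, 0% and 100% in RH VEH, 89.7% and 100% in WT MET and 100% and 100% in WT VEH. Like Krt17, it was missed only by RH VEH 1. Krt81 (chr15:101459061-101463765) was bare in 6 libraries, and its cover reached 78.7% in WT MET 2 and 24.2% in WT VEH 2. Krt83 (chr15:101485130-101491512) was covered over 19.9% and 8.02% in RH MET and was bare in the other 3 groups. Krt81, Krt83 and Krt86 are close paralogs, with the same limit as Krt6a and Krt6b.

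The remaining keratin genes, which no list by tissue holds, included Krt222 (chr11:99232761-99244147) at the lower end of the type I cluster. Krt222 was covered over 82.1% and 89.1% in RH MET, 47.0% and 100% in RH VEH, 61.0% and 100% in WT MET and 55.7% and 83.8% in WT VEH. Krt42 (chr11:100262882-100269951), at the other end of that cluster, was covered over 88.7% and 88.7% in RH MET, 0% and 100% in RH VEH, 60.4% and 100% in WT MET and 100% and 100% in WT VEH. Both ends of the type I cluster thus carried the mark in 7 or 8 libraries. Krt88 (chr15:101447724-101453925) was bare in the 4 RH libraries and was covered over 0% and 100% in WT MET and 100% and 83.9% in WT VEH. Krt79, Krt87 and Krt90 were called in all 8 libraries, and Krt90 was covered over 90.6% to 100%.

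**Figure D2:**
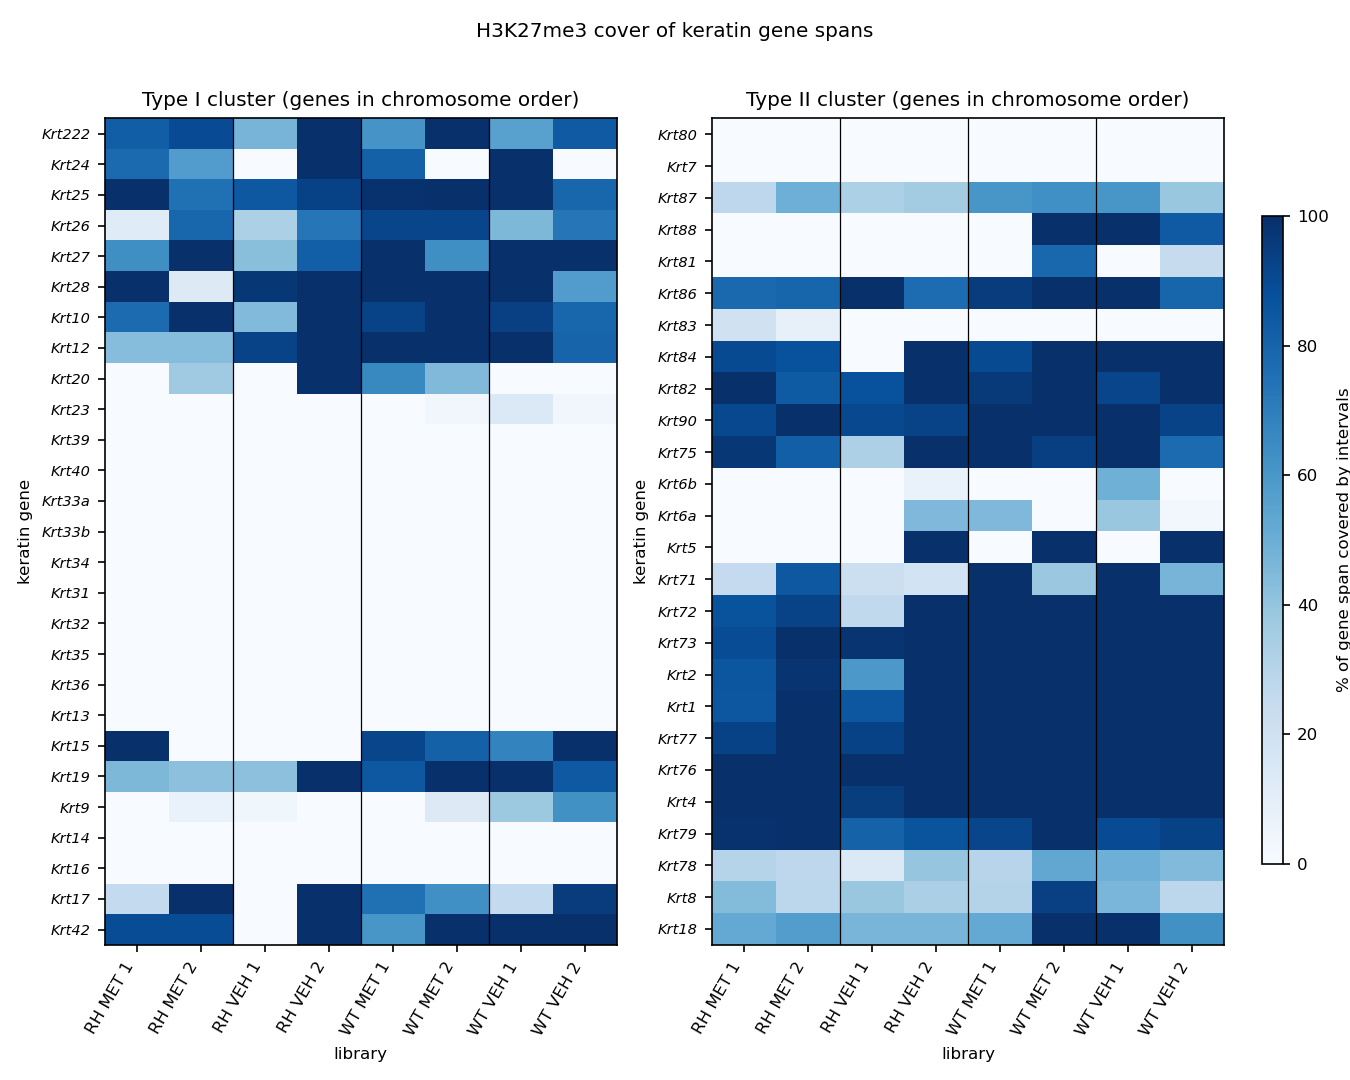
Percent of each keratin gene's span covered by H3K27me3 intervals (colour, 0 to 100%) in each library (columns, grouped as RH MET, RH VEH, WT MET and WT VEH), with genes in chromosome order down the rows. An unbroken pale block runs from Krt39 to Krt13 in the type I cluster and a dark block from Krt72 to Krt4 in the type II cluster.

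The classes followed gene order along the chromosomes. In the type I cluster the 6 genes from Krt25 to Krt12, across 107 kb, were called in all 8 libraries, and the 10 genes from Krt39 to Krt13, across 609 kb, were called in none. Krt19 stood alone as a gene called in all 8 between Krt15 and Krt9, and Krt14 and Krt16 formed a second bare pair. In the type II cluster the bare pair Krt80 and Krt7, across 79.5 kb, was followed by mixed calls up to Krt5. Each of the 12 genes from Krt71 to Krt18, across 298 kb, was then called in all 8 libraries. The mark was not continuous there, as chr15:101979201-101997200 (18 kb) held no interval in any library.

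The longest gap of a single library ran from 324 kb (WT VEH 2) to 568 kb (RH VEH 1) in the type I cluster. In the type II cluster that of RH VEH 1 (174 kb) held Krt6b, Krt6a and Krt5, while that of each other library held Krt80 and Krt7. The stretches below were picked for being bare in all 8 libraries. No library had an interval in chr11:99998801-100126000, 127 kb that hold the 8 genes from Krt33a to Krt13. The same held for chr11:99500801-99581800, 81.0 kb with Krt39 and Krt40, and for chr15:101348315-101434200, 85.9 kb with Krt80 and Krt7. The longest such stretch, chr11:99666401-99931800 (265 kb), lies between these blocks of the type I cluster, where the keratin-associated protein genes are. Base pairs covered in all 8 libraries made up 4.42% of the type I cluster and 20.2% of the type II cluster, and those covered in at least 1 library made up 34.6% and 74.1%.

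Interval edges seldom coincided to within 400 bp in at least 6 libraries, and the 3 places where they did were all in the type II cluster. A lower edge lay at chr15:101809401-101809601 in 7 libraries, 1088 bp from Krt2. Another lay at chr15:101914801-101915201 in 6 libraries, 3334 bp from Krt4. An upper edge lay at chr15:101946200-101946600 inside the span of Krt78 in all 8 libraries, just beyond Krt79. The span of Krt78 in RefSeq is 50.6 kb, and its promoter window begins 42.3 kb inside that span, so that the low cover of Krt78 (13.8% to 52.9%) refers to a span far longer than the stretch from that start.

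The single gene closest to each cluster end carried few calls, while the next genes outward ranged from bare to fully called. The calls of these neighbours were not tested against the background. Smarce1, a chromatin remodelling subunit 1.74 kb below Krt222, was called in 2 libraries with a cover of at most 0.988%. On the other side of that cluster Eif1, a translation initiation factor 49.998 kb above Krt42, was called in none. Eif4b, another such factor 41.7 kb above Krt18, was also called in none, and Smim41, 50.9 kb below the unmarked Krt80, was called in none. Farther out the mark returned in all 8 libraries at Ccr7, a chemokine receptor 77.7 kb below Krt222, at Hap1, 77.4 kb above Krt42, at Nr4a1, a nuclear receptor 73.5 kb below Krt80, and at Tns2, 66.4 kb above Krt18. The other 4 of the nearest 3 genes per side were Tns4 and Atg101, called in none, Spryd3, called in 1, and Gast, called in 5.

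Summits over keratin genes were low for called genes. Summit heights are the authors' own values without a stated unit, and they were ranked only within a library. The highest summit over a called keratin gene had a median height of 13 and 16 in RH MET, 10.5 and 13 in RH VEH, 17 and 19 in WT MET and 14 and 16 in WT VEH. Over all called genes of the same libraries the medians were 37 and 35 in RH MET, 20 and 30 in RH VEH, 38 and 42 in WT MET and 29 and 36 in WT VEH. The keratin medians lay at the 39.8th to 58.1st percentile of all intervals of their library, against the 74.4th to 80.6th for all called genes, with the keratin value below in 8 of 8 libraries. The median span was 7.07 kb for keratin genes and 17.2 kb for all protein-coding genes, a longer span can meet more intervals, and the part of length in this difference was not tested.

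A few places in the clusters carried summits that stood well above their neighbours. Among the intervals that overlap Krt1 the highest summit was 53 and 47 in RH MET, 31 and 34 in RH VEH, 61 and 71 in WT MET and 35 and 54 in WT VEH. Summits within 1000 bp of Krt1 itself had heights of 20 to 71 and lay in all 8 libraries between chr15:101845937 and chr15:101846369, a spread of 432 bp near the lower-coordinate end of the gene. A summit can lie in a neighbouring gene under the same interval: that of 31 in RH VEH 1 lies at chr15:101859809 in Krt77. At Krt87 the highest summit was 49 and 48 in RH MET, 25 and 39 in RH VEH, 44 and 51 in WT MET and 32 and 42 in WT VEH, and within 1000 bp of the gene its positions spread over 288 bp at the upper-coordinate end.

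The highest summits of the type I cluster lay at Krt19 and Krt222. Krt19 reached 28 and 31 in RH MET, 18 and 21 in RH VEH, 36 and 43 in WT MET and 29 and 29 in WT VEH. Krt222 reached 31 and 38 in RH MET, 13 and 18 in RH VEH, 24 and 37 in WT MET and 21 and 24 in WT VEH. The positions spread over 416 bp at Krt19 and 288 bp at Krt222, near the upper-coordinate end of both genes. Krt18 reached 24 and 20 in RH MET, 14 and 16 in RH VEH, 21 and 28 in WT MET and 19 and 21 in WT VEH. By contrast the 6 neighbouring genes from Krt25 to Krt12 had no summit above 17, although all were called in every library.

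**Figure D3:**
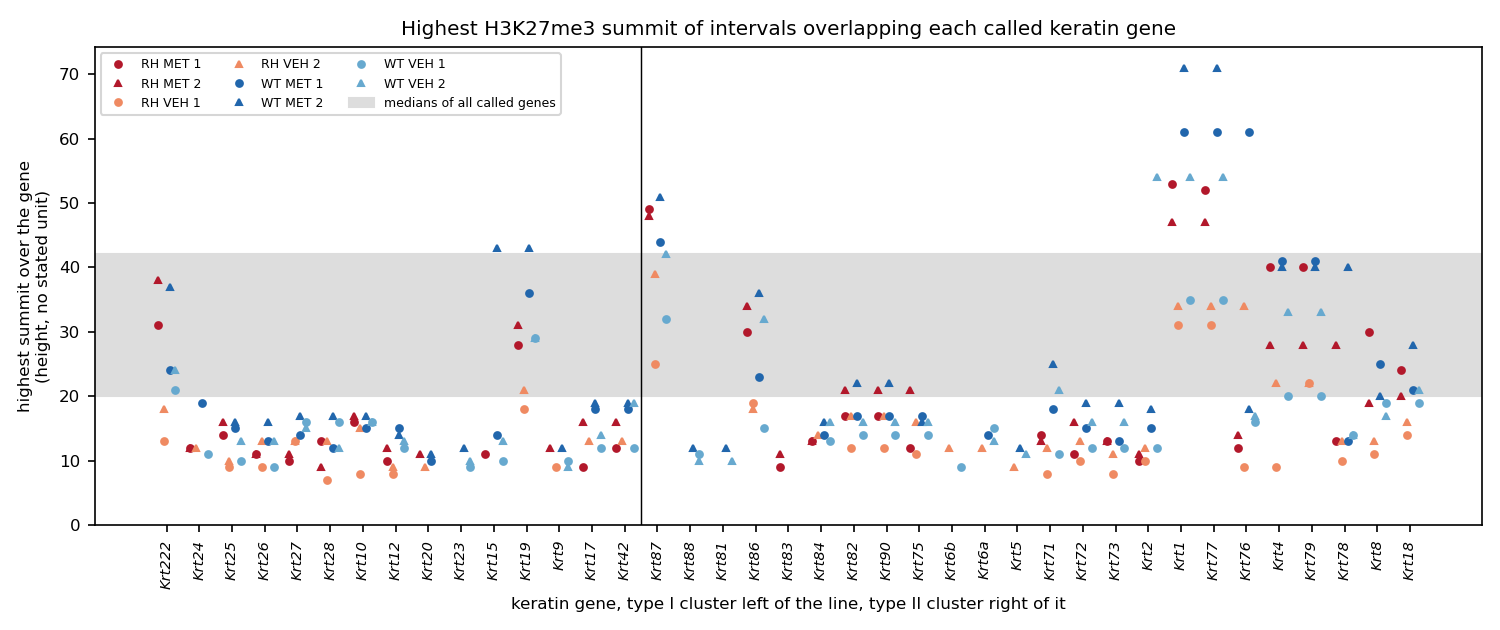
Highest summit (height, no stated unit) among the intervals over each called keratin gene, 1 symbol per library (circles for replicate 1, triangles for replicate 2, colours for groups), with the range of the 8 medians over all called genes as a grey band from 20 to 42. Krt1, Krt77 and Krt87 are high in most libraries, and most type I genes lie below the band. Krt77 has a summit within 1000 bp of its own span in 2 libraries, and otherwise takes that of an interval shared with Krt1. Krt76 (34 in RH VEH 2 and 61 in WT MET 1) and Krt2 (54 in WT VEH 2) equal Krt1 there, under 1 interval that spans these genes.

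Promoter sequence was compared between the classes for the 36 keratin genes with a RefSeq window of 300 bp, in 30 of which the window lies at the end of the gene span. The median number of CpG dinucleotides was 6 for 19 genes called in all 8 libraries, 4 for 7 genes called in some and 3.5 for 10 genes called in none. For all protein-coding genes with a window the medians were 17 for 4116 genes called in all 8 libraries and 11 for 10821 called in none, and 13 over 17492 genes. Among the 19 marked keratin genes only Krt18, whose sequence is given above, had at least 15 CpG, against 58.3% of all genes called in all 8 libraries. Krt7, with the highest number among the keratin genes, was bare.

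The letters TATAAA, searched on both strands, were found in 19 of the 36 keratin windows (52.8%), against 13.3% of all windows of the same length. They were present in 11 of 19 keratin genes called in all 8 libraries, 3 of 7 called in some and 5 of 10 called in none. Krt8, Krt76 and Krt31 are among the genes with these letters in the sequences above, and Krt18 and Krt7 are not. With the window in place of the gene span, 10 of 36 genes were called in all 8 libraries: Krt8, Krt12, Krt18, Krt27, Krt72, Krt76, Krt77, Krt78, Krt82 and Krt90. The share of all windows called in all 8 libraries was not counted, so these 10 cannot be set against a background.

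**Figure D4:**
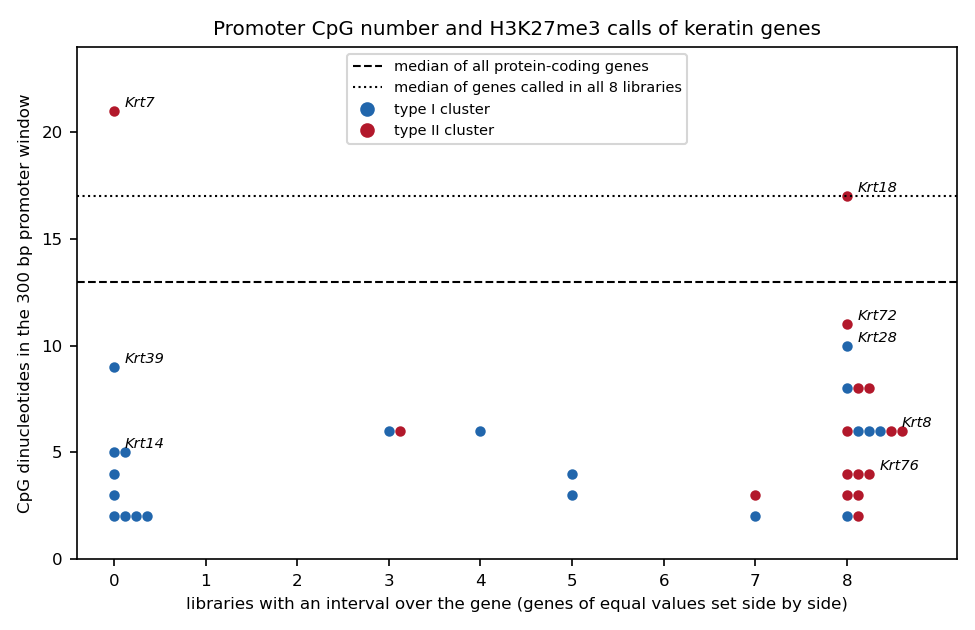
Number of CpG dinucleotides in the 300 bp promoter window (vertical axis) against the number of libraries that called the gene (horizontal axis) for 36 keratin genes, coloured by cluster, with dashed and dotted lines at the medians of all protein-coding genes (13) and of genes called in all 8 libraries (17). Krt7 at 21 with no call and Krt18 at 17 with calls in all 8 libraries stand apart, and the other genes lie at or below 11 in every class.

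Genes that act with keratins in epithelial cells were also called in many libraries, beside the background of 24.8% of all genes called in all 8, and these counts were not tested. Of 13 regulators of epithelial identity, 10 were called in all 8 libraries, including Grhl2, Ovol1 and Klf5, Ehf was called in 6, and Elf3 and Trp63, the master regulator of stratified epithelia, in none. Of 13 junction and adhesion genes, 11 were called in all 8, including Cdh1 (E-cadherin) and Epcam, Cldn4 in 2 and Tjp3 in none. Of 11 genes for other intermediate filaments and lamins, 10 were called in all 8, including Vim, which blood cells are known to express, and Lmnb1 in none. With at least 50% cover required in all 8 libraries, 3 of the 13 regulators, 3 of the 13 junction genes and 7 of the 11 filament genes remained, beside 11 of the 53 keratin genes. The median of the mean cover was 29.8% for the regulators and 29.0% for the junction genes, against 52.0% for the keratin genes. It was 95.8% for the genes of other intermediate filaments and lamins. Vim was covered over 29.2% to 41.0% of its span, against 90.3% to 100% for Des, the muscle filament gene.

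The genotype comparison asks whether R878H cells differ from WT cells in the mark at these genes. Keratin genes had less cover in RH than in WT libraries for most genes, and no single gene passed the test. Mean cover was lower in the 4 RH libraries for 34 of the 39 called keratin genes, higher for 4 and equal for 1, against 69.3% lower over all 8598 called genes. The median difference was −11.9 percentage points for keratin genes and −1.31 over all called genes. These medians are not on a like scale. Called keratin genes had a median cover of 53.2% to 100% per library, against 16.8% to 31.3% over all called genes. The part of this in the difference was not tested. In an exact permutation test of 4 against 4 libraries (two-sided, 70 assignments, smallest possible p = 0.0286) with Benjamini-Hochberg adjustment over the 8598 genes, the background of calls was 0% and no keratin gene passed. At an unadjusted p under 0.05, 279 genes and 0 keratin genes were counted. An adjusted p under 0.05 would need a large share of the 8598 genes at the smallest possible p. The adjusted test therefore could not single out a keratin gene, and its 0 says nothing of genotype at these genes. In none of the keratin genes was the cover of all 4 WT libraries above that of all 4 RH libraries (background 3.08%), or the reverse (background 0.163%).

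The keratin gene with the smallest genotype p was Krt87, singled out after its values were seen. Krt87 was covered over 27.4% and 49.3% of its span in RH MET, 32.9% and 35.6% in RH VEH, 60.2% and 62.9% in WT MET and 60.2% and 38.3% in WT VEH. It averaged 36.3 ± 9.31% in RH and 55.4 ± 11.5% in WT libraries (SD, n = 4 each), a difference of −19.1 percentage points (SE 7.38), with an exact permutation p = 0.0571 and an adjusted p = 0.939. RH MET 2 lay above WT VEH 2, so the genotypes overlapped.

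The library totals moved with this comparison. Covered length over the genome was 80.0 to 155 Mb in RH and 142 to 186 Mb in WT libraries, and its part in the lower keratin cover was not tested. Without RH VEH 1, the library with the least cover, 28 keratin genes were lower and 9 higher in RH, with a median difference of −5.47 percentage points (−0.386 over all genes). Of the keratin genes 71.8% were lower without RH VEH 1, against 58.7% of all called genes. Without RH VEH 2 the median difference was −19.0 (−1.96 over all genes). With equal numbers of intervals in each library it was −9.58 (−0.945 over all genes). Within metformin-treated libraries the median difference was −7.90 (−1.09 over all genes) and within vehicle libraries −8.10 (−1.03 over all genes). In each, 30 of 38 keratin genes were lower (78.9%). Over all genes called there, 63.4% were lower within metformin and 62.6% within vehicle.

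**Figure D5:**
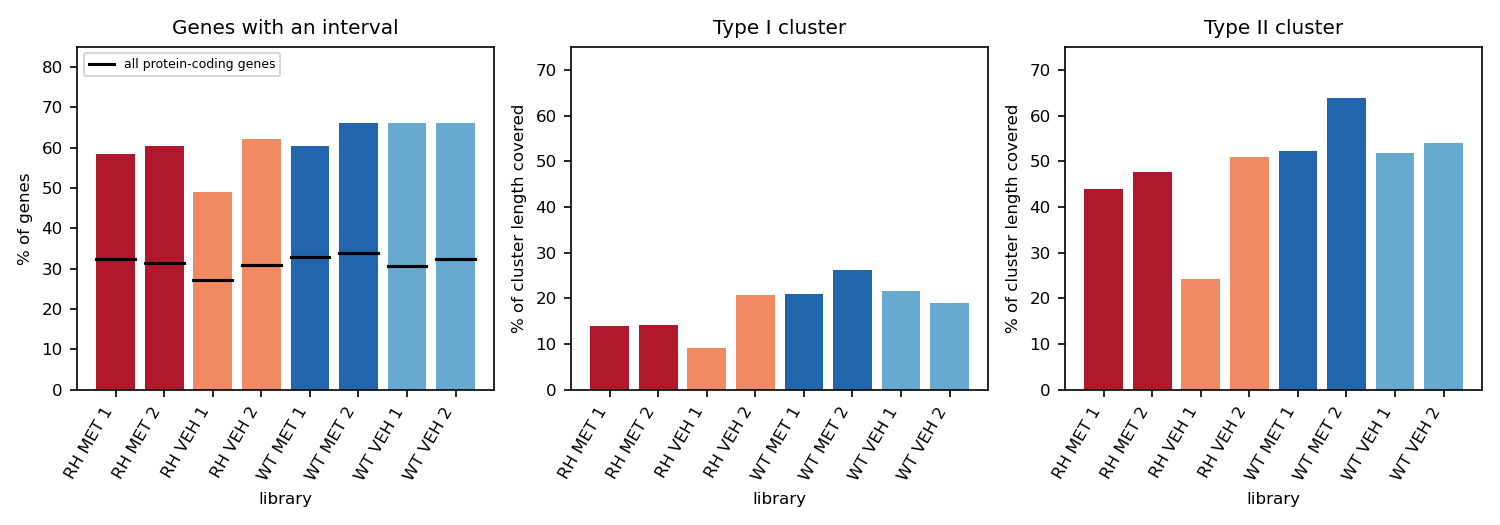
Percent of keratin genes with an interval (left, bars) and of all protein-coding genes (left, black lines), and percent of the length of the type I cluster (middle) and the type II cluster (right) covered by intervals, per library and coloured by group. RH VEH 1 has the lowest bar in each panel, and WT MET 2 has the highest cover of both clusters.

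Cover of the whole clusters was lowest in RH VEH 1 and highest in WT MET 2. Intervals covered 14.0% and 14.2% of the type I cluster in RH MET, 9.16% and 20.7% in RH VEH, 21.0% and 26.2% in WT MET and 21.5% and 19.0% in WT VEH. For the type II cluster the shares were 44.0% and 47.7% in RH MET, 24.3% and 50.9% in RH VEH, 52.3% and 63.8% in WT MET and 51.8% and 54.1% in WT VEH. RH and WT ranges overlapped in the type I cluster through RH VEH 2, and in the type II cluster the 4 RH libraries lay below the 4 WT libraries. Relative to the library's covered length, the type I cluster held 1.13 to 1.39 kb per Mb in RH and 1.36 to 1.57 kb per Mb in WT libraries. The type II cluster held 2.07 to 2.49 kb per Mb in RH and 2.35 to 2.55 kb per Mb in WT libraries, so that on this scale both clusters overlapped between the genotypes.

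Within vehicle, 3 of the 38 keratin genes with a call there, Krt15, Krt23 and Krt88, were called by each WT VEH library and by no RH VEH library (7.89%, background 2.4%), and 0 the other way (background 0.434%). Krt15 and Krt88 were covered over 67.8% or more of their spans in the WT VEH libraries, and Krt23 over 3.43% and 14.0%. Within metformin, Krt83 was the only keratin gene called by each RH MET library and by no WT MET library (2.63% of 38, background 0.921%), with 0 the other way (background 2.21%). An exact permutation of 2 libraries against 2 cannot reach a p below 0.333, and these counts were not tested. Single libraries set their size: the 3 in WT VEH alone became 7 without RH VEH 2, and the 0 in RH VEH alone became 1 without RH VEH 1. The 1 in RH MET alone became 2 without WT MET 1, and the 0 in WT MET alone became 4 without WT MET 1 and 1 without RH MET 1, RH MET 2 or WT MET 2. None of the 3 genes that separated the genotypes under vehicle did so under metformin, and the difference between those comparisons was not tested.

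The metformin comparison asks whether treatment changed the mark at keratin genes in either genotype. The direction of the difference depended on single libraries. Mean cover was higher in the 4 MET libraries for 24 of the 39 called keratin genes, lower for 12 and equal for 3. These shares, 61.5% higher and 30.8% lower, were near the 59.4% and 32.2% over all 8598 called genes. The median difference was 3.78 percentage points for keratin genes, against 0.473 over all called genes. As for genotype, these medians are not on a like scale. Without RH VEH 1 there were 22 genes lower and 15 higher (56.4% lower, against 46.2% over all called genes), and the median turned to −2.76. It was 1.35 without WT MET 2, 2.14 without WT MET 1, 1.80 without WT VEH 2 and 5.82 without WT VEH 1, and −3.50 with equal numbers of intervals in each library. In the same exact permutation test with adjustment over 8598 genes, no keratin gene passed (background 0%). The adjusted test could not single out a keratin gene here either. At an unadjusted p under 0.05, 95 genes and 0 keratin genes were counted. In none of the keratin genes was the cover of all 4 MET libraries above that of all 4 VEH libraries (background 1.01%), or the reverse (background 0.093%).

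Krt79 (chr15:101929332-101940324), a keratin of sebaceous gland ducts and the hair canal in mouse skin, had the smallest p for treatment and was singled out after its values were seen. It was covered over 98.9% and 100% in RH MET, 80.7% and 86.1% in RH VEH, 91.6% and 100% in WT MET and 89.1% and 92.7% in WT VEH. It averaged 97.6 ± 4.05% in MET and 87.2 ± 5.09% in VEH libraries (SD, n = 4 each), a difference of 10.5 percentage points (SE 3.25), with an exact permutation p = 0.0571 and an adjusted p = 1. With summits of at least 15 alone, the difference was 33.8 percentage points. WT MET 1 lay below WT VEH 2, so that the treatments overlapped within WT and did not overlap within RH.

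Within RH, Krt83 was called by each RH MET library and by no RH VEH library (2.78% of 36 keratin genes, background 2.99%), with 0 the other way (background 0.203%). Within WT, Krt20 was called by each WT MET library and by no WT VEH library (2.63% of 38, background 2.23%), with 0 the other way (background 0.522%). These shares were near the background of all genes. In RH MET alone against RH VEH the 1 became 5 without RH VEH 2 and 2 without RH MET 2, and in RH VEH alone the 0 became 3 without RH VEH 1. In WT VEH alone against WT MET the 0 became 3 without WT MET 2 and 1 without WT MET 1 or WT VEH 2. The RH MET against WT MET and RH MET against RH VEH comparisons share the RH MET libraries, and Krt83 appears in both. Its calls there cover 19.9% and 8.02% of its span, and the full length of those intervals was not measured. The 14 genes without a call had none in any of the 4 groups, which is how they were chosen and says nothing of genotype or treatment.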

How the data were processed

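H3K27me3 ChIP-seq intervals of 8 libraries (2 per group) were used. Per the submitters' processing notes, bcl2fastq 2.20, BWA 0.7.12 and mm10 were used, with no roles stated. How intervals were called and filtered, the depth and the role of the input is not given in the sources used here. Per the file headers, the authors deposited intervals and summits per library, so replicates were not pooled. Summit height is a score, deposited in whole numbers with no unit. Interval edges lie on a 200 bp grid with gaps of at least 800 bp.

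Gene spans came from RefSeq (GRCm38.p6). Cover was the percent of a span inside intervals, and calls needed 1 bp. Cover was tested with an exact permutation of 4 against 4 libraries, with Benjamini-Hochberg adjustment over all called genes at 0.05, on code tested on simulated data (Python 3.11.15, numpy 2.4.6, pandas 2.3.3). No test was made over the list. Named genes were those of fixed lists, genes that separate 2 groups, genes called in 1 to 7 libraries and the 3 nearest neighbours per side. The members and lists were chosen with earlier results of these data known. Alternatives were a cover of at least 50%, a summit of at least 15, equal interval numbers (11620, the highest summits first), spans extended by 2500 bp, promoter windows, joining across 1000 bp, leaving out each library, and other exchanges of labels.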

Additional observations from a re-analysis of the deposited data

Results flagged for a closer look

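In 28 sets of 4 libraries, 4 held a library far from the other 3 relative to the range of the set. The sets were counts, cluster cover and named genes within each genotype or treatment. For independent values chance gives about 1 in 20. The 4 cannot be set against that rate, because the sets share libraries and the gene counts hold ties. Krt87 and Krt79 were also singled out after their values were seen. No excess over chance is therefore claimed. WT MET 1 called 32 keratin genes while the other 3 WT libraries called 35 each. RH VEH 1 covered 165.8 kb of the type II cluster, against 348 to 369.6 kb in the other VEH libraries, and it also had the least covered length over the genome (80.0 Mb). WT VEH 2 covered 38.3% of Krt87, against 60.2% to 62.9% in the other WT libraries. WT MET 1 covered 91.6% of Krt79, against 98.9% to 100% in the other MET libraries. The part of library quality in these values was not tested.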

How the results depend on the processing

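Of 256 alternative values, 218 kept their direction and side of the threshold, or stayed within 1.5 times a count or 1 SD of a value, 38 moved further and 0 reversed, where the medians over keratin genes given at the end are not among the 256. The 218 include all values under the other exchanges of labels, which could not move. They also include the counts of keratin genes past the adjusted threshold, 0 throughout, as the adjusted test could not single out a keratin gene. The 25 genes called in all 8 libraries became 11 with at least 50% cover, 6 with summits of at least 15 (Krt1, Krt19, Krt77, Krt79, Krt86 and Krt87), 10 of 36 in promoter windows and 25 to 28 with a library left out. The 14 genes in none became 22 with the summit minimum, among them the same 14. Shares of all genes were not counted for promoter windows or the summit minimum, so those counts stand without a background. That minimum lowered mean covered length to 82.0 kb (type I cluster) and 177 kb (type II cluster), and joining across 1000 bp raised the genes in the widest type II domain to 3.25.
Counts of separating genes were small and moved. In RH MET alone against WT MET, 1 became 0 under 50% cover, the summit minimum, equal interval numbers, extended spans and promoter windows (1 to 2 with a library left out). In WT MET alone against RH MET, 0 became 3, 3, 4 and 2 under 50% cover, the summit minimum, equal numbers and promoter windows (0 to 4). In RH VEH alone against RH MET, 0 became 1 with 50% cover and 3 with equal numbers (0 to 3). In RH MET alone against RH VEH, 1 became 0 with equal numbers or promoter windows (1 to 5). In WT MET alone against WT VEH, 1 became 0 with 50% cover, equal numbers or extended spans and 2 with the summit minimum. In WT VEH alone against RH VEH, 3 became 1 with equal numbers (3 to 7), RH VEH alone against WT VEH ran from 0 to 1, and WT VEH alone against WT MET from 0 to 3. The cause was not tested, except that fewer intervals and fewer libraries enter by construction.
The median genotype difference over keratin genes was −24.4 percentage points with the summit minimum, and the treatment difference was 12.9 with it, but turned to −2.76 without RH VEH 1 and −3.50 with equal interval numbers, against 3.78. Leaving out a library gave −24.8 to −16.2 percentage points for Krt87 and 8.30 to 12.5 for Krt79, and the summit minimum gave 33.8 for Krt79 with an adjusted p = 1 by exact permutation. Libraries with the same replicate number share only a number (correlations of deviations from −0.0348 to 0.186 over the 6 pairs of groups), and a replicate block (16 assignments, smallest p 0.125) left 0 genes past the adjusted threshold in both contrasts. No whole-span count of CpG was run, because no genome was used here. Read depth is unknown, and signal below the caller's limit cannot be seen.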
